A study of Mus musculus with 27 samples.

Results

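The genes of the proteasome were followed through inflammation and repair of the mouse lacrimal gland. They were chosen by name: protein-coding genes whose symbols are Psma, Psmb, Psmc, Psmd or Psme followed by a number, without the 3 interferon-inducible subunit genes Psmb8, Psmb9 and Psmb10 and without pseudogenes. The rule found 42 genes among the 43346 in the expression table, and 40 of them passed the filter on low values, a normalized expression of 10 or more in 2 or more of the libraries tested. The tested libraries came from IL-1α glands on days 1 to 5, 7 and 14 after an injection of 1 µg of the cytokine, from uninjured glands (day 0), and from glands injected with saline 14 days earlier, the secondary control of the design. All mice were female wild-type BALB/c mice, given as 8 to 10 weeks old in the labels, and each library held the RNA of lacrimal gland from 1 mouse. Each group had 3 mice, but 1 sample of day 7 was not analysed here and 3 libraries were kept out of the tests, as the study excluded them (replicate 3 of day 2 and replicate 1 of both day 4 and day 7), so that days 2 and 4 had 2 libraries, day 7 had 1 and every other group had 3. The saline glands were collected on day 14 only, so that the effect of the injection itself on the early days cannot be told apart from that of IL-1α.

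The proteasome degrades proteins tagged with ubiquitin and cuts cytosolic proteins into the peptides that are loaded onto MHC class I molecules. Its barrel-shaped core is a stack of rings of α subunits (Psma genes) around rings of β subunits (Psmb genes), of which Psmb5, Psmb6 and Psmb7 hold the active sites. A regulatory particle caps the barrel, with a base of ATPases that unfold substrates (Psmc genes) and scaffold and receptor subunits, and a lid that removes ubiquitin (the remaining Psmd genes). The activators encoded by Psme genes open the barrel without ATP: PA28α and PA28β (Psme1 and Psme2) form a cytosolic complex that interferon-γ induces, PA28γ (Psme3) is nuclear, and PA200 (Psme4) is a large nuclear activator. Interferon also replaces the active β subunits with those of the immunoproteasome. By these roles the 42 genes are 7 α subunits, 7 β subunits (3 of them catalytic), 6 base ATPases, 3 other base subunits, 8 lid subunits, 3 assembly chaperones, 5 activators, the testis form Psma8, the thymus form Psmb11, and Psmc3ip, a recombination factor that carries the prefix but is no subunit.

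The values are the deposited normalized expression, in which the estimated counts of each library were scaled by a single factor, and the depth came to about 9500000 to 13100000 counts per library. A gene is said to have risen or fallen where the adjusted p of limma's moderated test on log2(value + 1), with Benjamini-Hochberg adjustment over all 13762 genes tested, was at most 0.05. Differences are on that log2 scale with their standard error (SE), and levels are given with the SD over mice. All differences from day 0 share its 3 libraries, in which the summed subunit level of replicate 1 stood apart from the others. The markers of lacrimal epithelium were present in every library, with a sum over 11 genes between 62478 and 171092. A limma F test over the 9 groups found a difference at an adjusted p of at most 0.05 for 34 of the 40 proteasome genes, against 51.8% of all genes tested.

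The starts of 4 genes are shown because these genes moved most on day 1: Psme1, Psme2 and Psmd4 had the largest increases among those that passed the test and Psme4 the largest decrease. Each window covers 250 bases before and 50 bases from the start site, as RefSeq gives it on GRCm38.p6, along the strand of the gene. Psme1 lies at chr14:55578244-55578543 (plus strand), Psme2 at chr14:55591052-55591351 (minus strand), Psmd4 at chr3:95042565-95042864 (minus strand) and Psme4 at chr11:30771525-30771824 (plus strand). Capitals mark matches to 3 motifs searched on both strands: TGACNNNGC, the antioxidant response element, GAAANNGAA, the core of the interferon-stimulated response element, and TTCNNNGAA, the gamma-activated sequence.
Psme1: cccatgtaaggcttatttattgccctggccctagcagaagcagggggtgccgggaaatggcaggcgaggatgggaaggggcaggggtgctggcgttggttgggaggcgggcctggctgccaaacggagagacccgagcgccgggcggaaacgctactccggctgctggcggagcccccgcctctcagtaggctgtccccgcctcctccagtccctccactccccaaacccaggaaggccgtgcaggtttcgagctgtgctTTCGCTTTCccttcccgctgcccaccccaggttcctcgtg
Psme2: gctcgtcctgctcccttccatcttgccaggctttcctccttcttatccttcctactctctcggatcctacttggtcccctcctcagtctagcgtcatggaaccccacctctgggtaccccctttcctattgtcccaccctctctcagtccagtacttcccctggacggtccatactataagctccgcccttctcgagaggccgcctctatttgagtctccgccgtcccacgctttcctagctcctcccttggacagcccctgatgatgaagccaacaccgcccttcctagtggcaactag
Psmd4: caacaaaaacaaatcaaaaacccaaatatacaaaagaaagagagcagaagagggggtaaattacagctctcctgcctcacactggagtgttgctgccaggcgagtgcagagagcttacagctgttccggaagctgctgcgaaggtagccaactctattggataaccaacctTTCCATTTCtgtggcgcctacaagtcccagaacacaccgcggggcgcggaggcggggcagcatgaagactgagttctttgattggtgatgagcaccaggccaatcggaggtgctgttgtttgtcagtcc
Psme4: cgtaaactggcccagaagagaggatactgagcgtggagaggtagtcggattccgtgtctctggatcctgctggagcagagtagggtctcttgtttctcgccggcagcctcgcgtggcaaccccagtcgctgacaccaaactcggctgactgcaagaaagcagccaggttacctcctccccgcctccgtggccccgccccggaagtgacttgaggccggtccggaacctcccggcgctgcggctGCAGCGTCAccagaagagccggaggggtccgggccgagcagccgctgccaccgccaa

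The window of Psme1 holds a match to GAAANNGAA 10 bases after its start and that of Psmd4 a match to it 79 bases before its start. The window of Psme4 holds a match to TGACNNNGC 7 bases before its start. These 3 matches are on the opposite strand and so read TTCNNTTTC or GCNNNGTCA as printed. The window shown for Psme2, from the more upstream of its 2 start sites, holds none of the 3 motifs. Of the 42 genes, 35 had a window in the table. GAAANNGAA was found in the windows of 6 of them (17.1%), which are Psmb3, Psmb4, Psmc2, Psmd4, Psmd9 and Psme1, against 8.56% of all 32851 windows. TGACNNNGC was also found in 6 (17.1%), Psmb5, Psmb6, Psmc6, Psmd9, Psmd12 and Psme4, against 12.4% of all windows. TTCNNNGAA was found in 1, Psmd2 (2.86%, against 8.30% of all windows). The shares of the 35 count genes, whereas the shares beside them count windows. A gene can have more than 1 start site, so these shares are unlike measures and no excess is read from them. These matches are letters in a window and do not show binding. In the GENCODE M21 annotation, Psme1 (chr14:55578123-55581529) and Psme2 (chr14:55587441-55591113) point toward each other, with 5911 bases between them. Whether other genes lie in between was not examined. The RefSeq start used for Psme1 lies inside its GENCODE span, so the window printed for Psme1 falls within that span and not upstream of it.

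In uninjured glands 38 of the genes had a normalized expression of at least 10, as they did in every other library. Levels between genes were compared after division by exonic length, per kilobase. The highest were Psma6, an α subunit, at 367.7 ± 54.3 per kb, Psmc5, a base ATPase, at 354.2 ± 50.9, and Psmb5, which holds the chymotrypsin-like site, at 335.2 ± 58.7 (SD, n = 3 mice each). The 3 assembly chaperones, which help to build the base and leave the finished particle, were near the bottom, with Psmd9 at 5.45 ± 0.74, Psmd5 at 29.4 ± 3.2 and Psmd10 at 64.6 ± 9.0 per kb. Between them and the subunits stood Psme1 at 67.7 ± 19.97 per kb, while Psme2 was at 94.3 ± 13.9, Psme3 at 154.7 ± 11.6 and Psme4 at 159.8 ± 9.4. The medians of the roles per kb were 215.7 for the α subunits, 208.5 for the non-catalytic β subunits, 222.2 for the catalytic β subunits, 222.8 for the ATPases, 150.5 for the other base subunits and 128.8 for the lid. The highest level was 67.4 times the lowest. In the order of levels only 3 of the 37 gaps between neighbours were larger than the SD of both genes (below Psmc6, below Psmd10 and below Psmd5), so the order within the subunits is mostly not resolved. Of the remaining genes, Psmb11 was at 0 in every library, Psma8 never passed 1.30, Psme2b ran between 0 and 13.9 and Psmc3ip between 0 and 14.7. Psme2b is a copy of Psme2 without introns, so reads can be shared between them and its values are uncertain.

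The PA28αβ activator genes were the proteasome genes that rose most after IL-1α. Psme1 stood at 427.7, 438.1 and 396.2 in the day 1 glands, against 200.02, 130.3 and 118.3 in the day 0 glands. Psme2 stood at 393.8, 397.8 and 357.1 in the day 1 glands, against 194.8, 152.4 and 152.1 in the day 0 glands. All day 1 glands lay above all day 0 glands for both genes. Psme1 rose by 1.52 on the log2 scale (SE 0.17, limma adjusted p = 2.51e-07) and Psme2 by 1.21 (SE 0.14, limma adjusted p = 5.13e-07). In bulk RNA of a gland, a change in the cells present and a change in RNA per cell cannot be told apart. Psme1 and Psme2 were the only 2 of the 40 genes to rise at least 2-fold with an adjusted p of at most 0.05 on day 1, against 11.3% of all genes. Saline-injected glands had 162.2, 129.0 and 114.0 for Psme1 and 161.8, 119.1 and 135.3 for Psme2, so the day 1 glands were also above all of them. Day 1 exceeded saline by 1.65 for Psme1 (SE 0.17, limma adjusted p = 1.20e-07) and by 1.47 for Psme2 (SE 0.14, limma adjusted p = 5.26e-08).

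On day 2 both genes were lower than on day 1 and still above day 0. Psme1 stood at 278.4 and 241.0 and Psme2 at 241.7 and 209.2 in the day 2 glands, all above the day 0 glands. The increase over day 0 was 0.83 for Psme1 (SE 0.19, limma adjusted p = 0.00186) and 0.44 for Psme2 (SE 0.15, limma adjusted p = 0.0351). The call for Psme2 was lost without day 0 replicate 2, day 0 replicate 3, day 2 replicate 1 or day 2 replicate 2, with adjusted p between 0.0559 and 0.263, with no filter on low values (adjusted p = 0.0608) and in a fit of the 2 groups alone (adjusted p = 0.0780). The low genes Psme2b and Psmc3ip differed from day 0 by 1.90 and 0.76 on day 1 (limma adjusted p = 0.109 and 0.288) and by 2.58 and 1.01 on day 2 (limma adjusted p = 0.0652 and 0.231) and did not pass. From day 1 to day 2 Psme1 fell by 0.70 (SE 0.19, limma adjusted p = 0.0226) and Psme2 by 0.76 (SE 0.15, limma adjusted p = 0.00386). By day 3 Psme1 averaged 120.7 ± 19.7 and Psme2 132.5 ± 15.7 (SD, n = 3), and neither differed from day 0 by the test on any later day. On day 5 Psme1 averaged 174.8 ± 19.7 and Psme2 177.4 ± 25.6, and on day 14 Psme1 averaged 133.2 ± 12.0 and Psme2 134.2 ± 17.1, against 149.6 ± 44.1 and 166.4 ± 24.5 on day 0 (SD, n = 3 each).

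**Figure D1:**
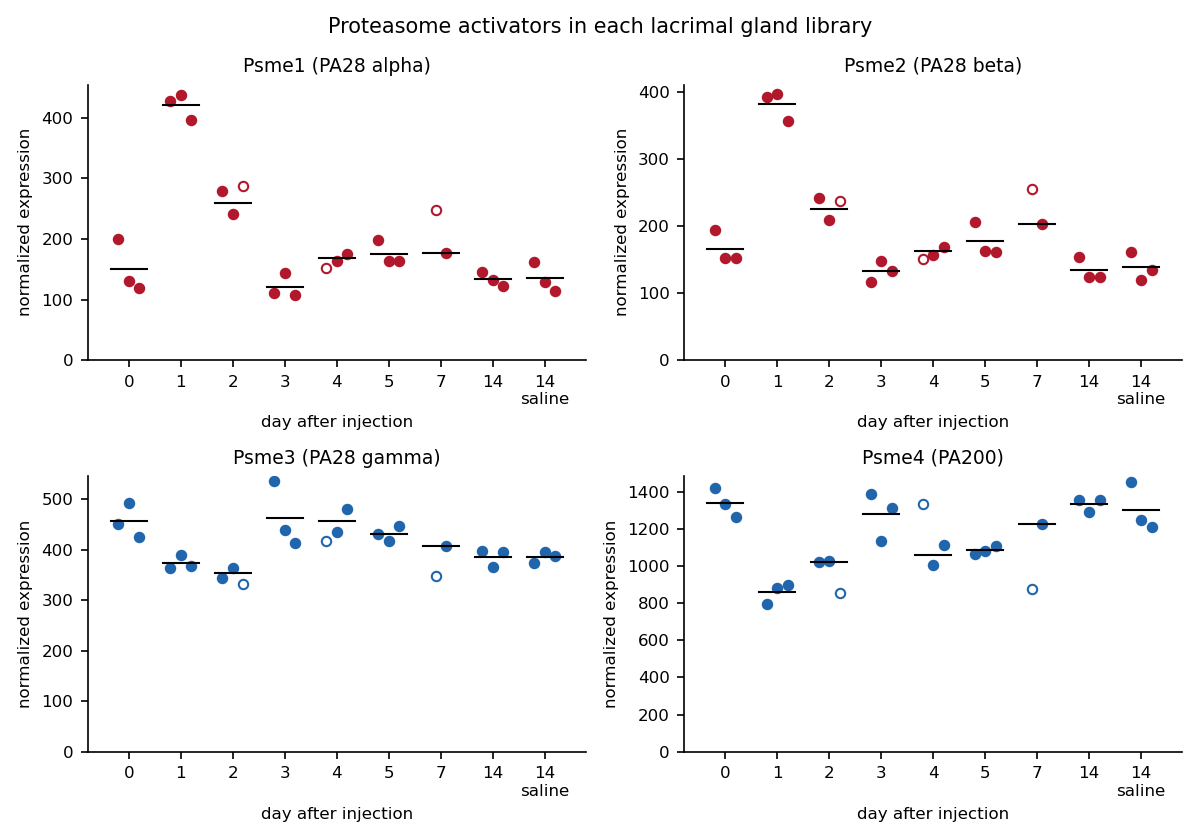
Normalized expression of the 4 activator genes Psme1 to Psme4 in each library by group, 1 panel a gene. Filled points are libraries in the tests, open points the 3 left out, and bars the mean of the filled points; Psme1 and Psme2 lie between 357.1 and 438.1 on day 1, above all other groups, while Psme4 has its lowest mean there, with values between 796.3 and 899.8.

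The activators Psme3 and Psme4 went the other way. Psme4 stood at 796.3, 879.5 and 899.8 in the day 1 glands, against 1421, 1333 and 1265 in the day 0 glands and 1452, 1249 and 1209 in the saline glands. The day 1 glands lay below all glands of both controls, and Psme4 fell by 0.64 relative to day 0 (SE 0.09, limma adjusted p = 3.91e-06) and by 0.60 relative to saline (SE 0.09, limma adjusted p = 1.22e-05). On day 2 its values were 1022 and 1025, and it was lower than on day 0 by 0.39 (SE 0.10, limma adjusted p = 0.00440) and lower than saline by 0.34 (SE 0.10, limma adjusted p = 0.0136). It averaged 1278 ± 131 on day 3 (n = 3), with no call, 1060 ± 76 on day 4 (n = 2), 1084 ± 22 on day 5 (n = 3) and 1334 ± 36 on day 14 (n = 3), against 1340 ± 78 on day 0 (SD, n = 3). It fell by 0.34 on day 4 (SE 0.10, limma adjusted p = 0.0195) and by 0.30 on day 5 (SE 0.09, limma adjusted p = 0.0123) relative to day 0. The day 4 call was lost without day 0 replicate 1 (adjusted p = 0.0672) or day 4 replicate 2 (adjusted p = 0.204), and the day 5 call without day 0 replicate 1 (adjusted p = 0.0561). With all 26 libraries neither passed (-0.23 and -0.30, adjusted p = 0.223 and 0.0612), and in a fit of the 2 groups alone the day 4 call was lost (adjusted p = 0.120). Psme3 stood at 364.1, 390.2 and 367.4 in the day 1 glands, against 450.9, 492.8 and 425.1 in the day 0 glands, without overlap, and fell by 0.28 (SE 0.09, limma adjusted p = 0.0150). It fell by 0.37 on day 2 (SE 0.10, limma adjusted p = 0.00910), when it stood at 343.3 and 363.6. The saline glands, at 374.2, 395.5 and 388.0, overlapped the day 1 glands, and the difference of day 1 from saline was -0.05 (SE 0.09, limma adjusted p = 0.737). Without day 0 replicate 2 the day 1 call of Psme3 was lost (adjusted p = 0.0761), and its day 2 call was lost without day 2 replicate 1 (adjusted p = 0.0992) and in a fit of the 2 groups alone (adjusted p = 0.0549).

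The directions of Psme3 and Psme4 rest on how libraries are scaled. The deposited factors equalise a typical gene, whereas the 10 most abundant genes took 53.8 to 54.3% of the total in day 1 glands, against 70.8 to 75.3% in day 0 glands and 68.0 to 73.9% in saline glands. Scaled to library totals instead, the median of all genes shifts by 1.18 on day 1 relative to day 0, Psme4 then differs by 0.54 (limma adjusted p = 0.000134) and Psme3 by 0.90, both upward. Scaled to totals without the 10 most abundant genes, where the median of all genes shifts by 0.46, Psme4 differed by -0.20 (limma adjusted p = 0.336) and Psme3 by 0.15 (limma adjusted p = 0.448). Psme1 and Psme2 rose under every scaling, by 2.70 and 2.38 with totals and by 1.96 and 1.64 with totals without those 10 genes. All directions given here are therefore relative to the typical gene.

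Of the 40 proteasome genes, 12 rose on day 1 relative to day 0 (30.0%, against 22.1% of all genes tested) and 3 fell (7.5%, against 20.4%). Their median difference was 0.15, against 0.03 over all genes. By role, 3 of the 7 α subunits, 1 of the 4 non-catalytic β subunits, 0 of the 3 catalytic β subunits, 1 of the 6 ATPases, 1 of the 3 other base subunits, 3 of the 8 lid subunits, 1 of the 3 chaperones and 2 of the 5 activators rose, and 1 lid subunit and 2 activators fell. After the activators the largest increase was that of Psmd4, the base subunit that binds ubiquitin chains. It stood at 762.5, 632.8 and 609.0 in the day 1 glands, against 398.3, 453.9 and 416.0 in the day 0 glands and 342.3, 372.2 and 356.9 in the saline glands. The day 1 glands lay above all others, and Psmd4 rose by 0.65 relative to day 0 (SE 0.10, limma adjusted p = 3.32e-05) and by 0.90 relative to saline (SE 0.10, limma adjusted p = 8.70e-07). The other 9 increases relative to day 0 lay between 0.22 and 0.56. Psmd12, a scaffold of the lid, was the subunit that fell: it stood at 483.7, 447.5 and 516.9 in the day 1 glands, against 666.7, 595.7 and 625.3 in the day 0 glands, without overlap, a difference of -0.38 (SE 0.10, limma adjusted p = 0.00379). Scaled to totals the sign of Psmd12 turned, to 0.80. The catalytic subunits Psmb5, Psmb6 and Psmb7 differed by -0.06, 0.24 and 0.00 and none passed the test. The number of increases was 5 without day 1 replicate 1 and 7 without day 1 replicate 2, day 0 replicate 2 or day 0 replicate 3, whereas it was 18 without both day 0 replicate 1 and day 3 replicate 1, whose subunit sums were 18520 and 17507; this last setting was added after the data were seen, and replicate 1 had the highest sum in 8 of the 9 groups.

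Against the saline glands, the other control, more of the proteasome genes passed the test. On day 1, 29 of the 40 rose (against 18.4% of all genes) and 1 fell (Psme4, against 17.8%), with a median difference of 0.41, against 0.01 over all genes. Among them were 6 of the 7 α subunits, all 4 non-catalytic β subunits, 2 of the 3 catalytic β subunits, 5 of the 6 ATPases, all 3 other base subunits and 6 of the 8 lid subunits. Of the 31 subunits of the rings, base and lid, 27 had all 3 day 1 glands above all 3 saline glands, where 25.9% of all genes did, and 9 had all 3 above all 3 day 0 glands, where 26.7% of all genes did. Psmb6, which holds the caspase-like site, stood at 512.4, 484.6 and 463.2 in the day 1 glands, against 326.9, 323.0 and 366.1 in the saline glands, without overlap (log2 difference 0.52, SE 0.11, limma adjusted p = 0.000841). Psmb7, which holds the trypsin-like site, stood at 693.8, 636.2 and 577.3 in the day 1 glands, against 535.1, 466.8 and 489.3 in the saline glands (0.35, SE 0.13, limma adjusted p = 0.0350). Psmb5 stood at 344.3, 273.6 and 248.2 in the day 1 glands, against 254.2, 219.9 and 283.2 in the saline glands, which overlap (0.19, SE 0.15, limma adjusted p = 0.349). Leaving out single libraries gave 22 to 28 increases. Both comparisons share the day 1 libraries.

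**Figure D2:**
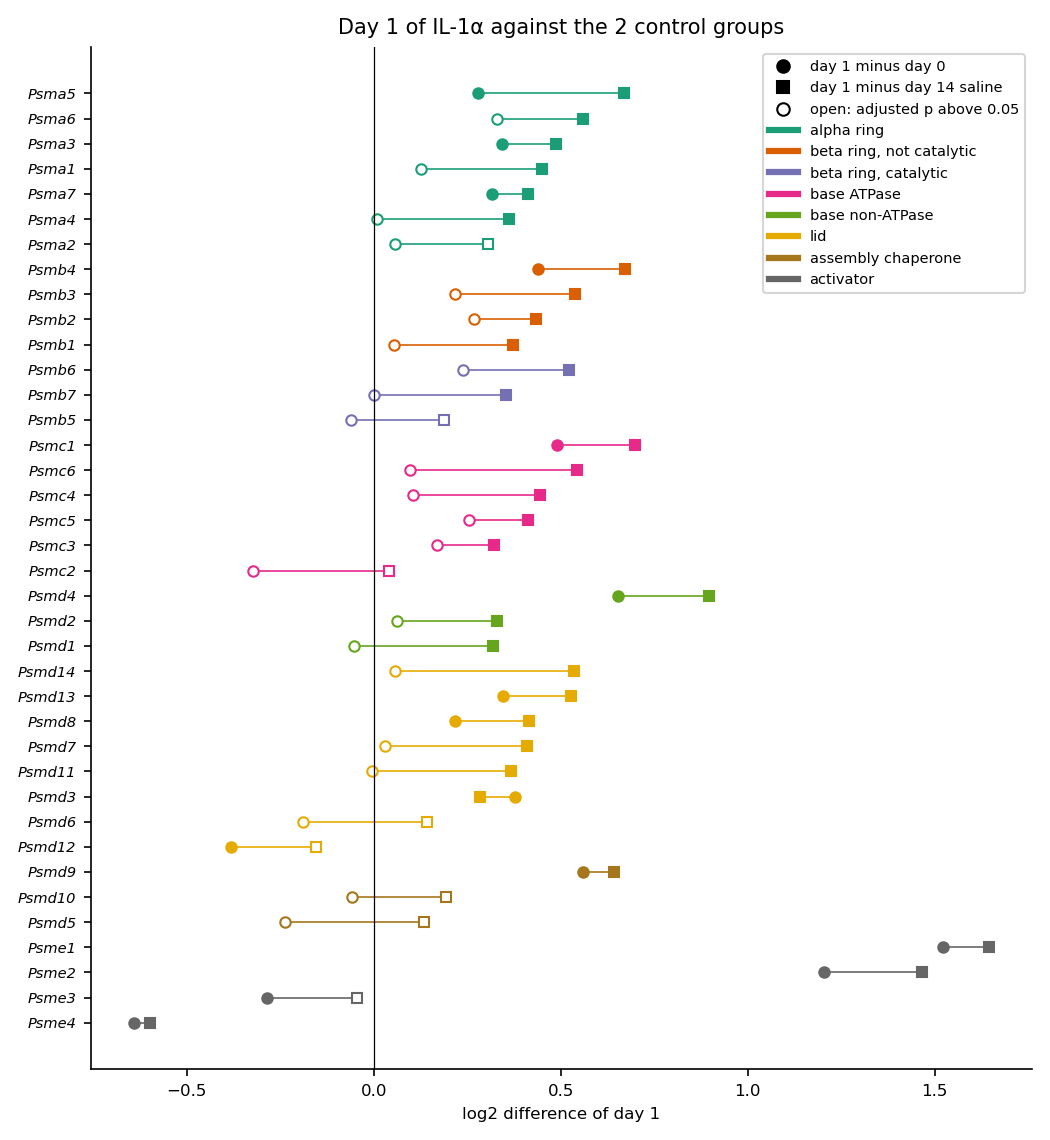
The log2 difference on day 1 for 38 proteasome genes (Psme2b and Psmc3ip are not drawn), from day 0 (circles) and from the saline glands (squares), 1 row a gene; open symbols did not pass the test. Most squares lie to the right of their circles, with medians over the 40 tested genes of 0.41 from saline and 0.15 from day 0.

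The control groups themselves differed in the levels of these genes, though few of the differences passed the test. The saline glands had lower values than the day 0 glands for 38 of the 40 genes, with a median difference of -0.25, against 0.01 over all genes. At an unadjusted limma p under 0.05 there were 21 below and 0 above. The share of all genes at that p is not given, so no excess is read from these counts. The subunits also varied together across glands, so the genes do not count as independent. Only 3 genes passed the test as fallen (against 1.84% of all genes) and 0 as risen (against 2.06%). The 3 were Psmd7, a lid subunit that pairs with the deubiquitinase Psmd14, Psmd14 itself and the chaperone Psmd5. Psmd7 stood at 439.3, 459.4 and 440.9 in the saline glands, against 652.7, 551.1 and 544.7 in the day 0 glands, without overlap (-0.38, SE 0.09, limma adjusted p = 0.0262). Psmd14 differed by -0.48 (SE 0.13, limma adjusted p = 0.0497) and Psmd5 by -0.37 (SE 0.10, limma adjusted p = 0.0483). Without day 0 replicate 1 or any 1 of the saline replicates 0 genes were called as fallen, whereas there were 5 without day 0 replicate 2. Summed over the 31 subunits, the 3 saline glands lay between 13578 and 14009, against 15494, 15875 and 18520 in the day 0 glands. Scaled to totals the median difference of the 40 genes was -0.03 and no gene passed as fallen.

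On days 2 to 5 no proteasome gene other than Psme1 and Psme2 rose relative to day 0, while many fell. On day 2, 2 of the 40 rose (Psme1 and Psme2, against 17.1% of all genes) and 10 fell (against 13.7%), with a median of -0.21, against 0.02 over all genes. On day 3, 5 fell (against 3.88%) and 0 rose (against 5.40%), on day 4, 11 fell (against 8.31%) and 0 rose (against 10.2%), and on day 5, 20 fell (against 12.9%) and 0 rose (against 15.9%), with medians of -0.19, -0.28 and -0.33. At an unadjusted limma p under 0.05 the numbers above day 0 were 0 on day 3, 1 on day 4 and 0 on day 5. The day 5 decreases took in all 3 catalytic β subunits, 2 of the 4 other β subunits, 2 of the 7 α subunits, 3 of the 6 ATPases, 2 of the 3 other base subunits, 5 of the 8 lid subunits, 2 of the 3 chaperones and Psme4. Of the 31 subunits, 27 had all 3 day 5 glands below all 3 day 0 glands, where 21.0% of all genes did. Relative to saline, 2 rose on day 2 (against 12.9% of all genes) and 1 fell (against 8.84%), 0 were called on day 3 (against 6.12%, with 5 above and 1 below at an unadjusted limma p under 0.05), and 1 fell on day 4 (against 14.7% of all genes either way) and on day 5 (against 21.0%), which was Psme4 on each of those days. The decreases among subunits are thus differences from the day 0 glands and were not called against the saline glands.

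**Figure D3:**
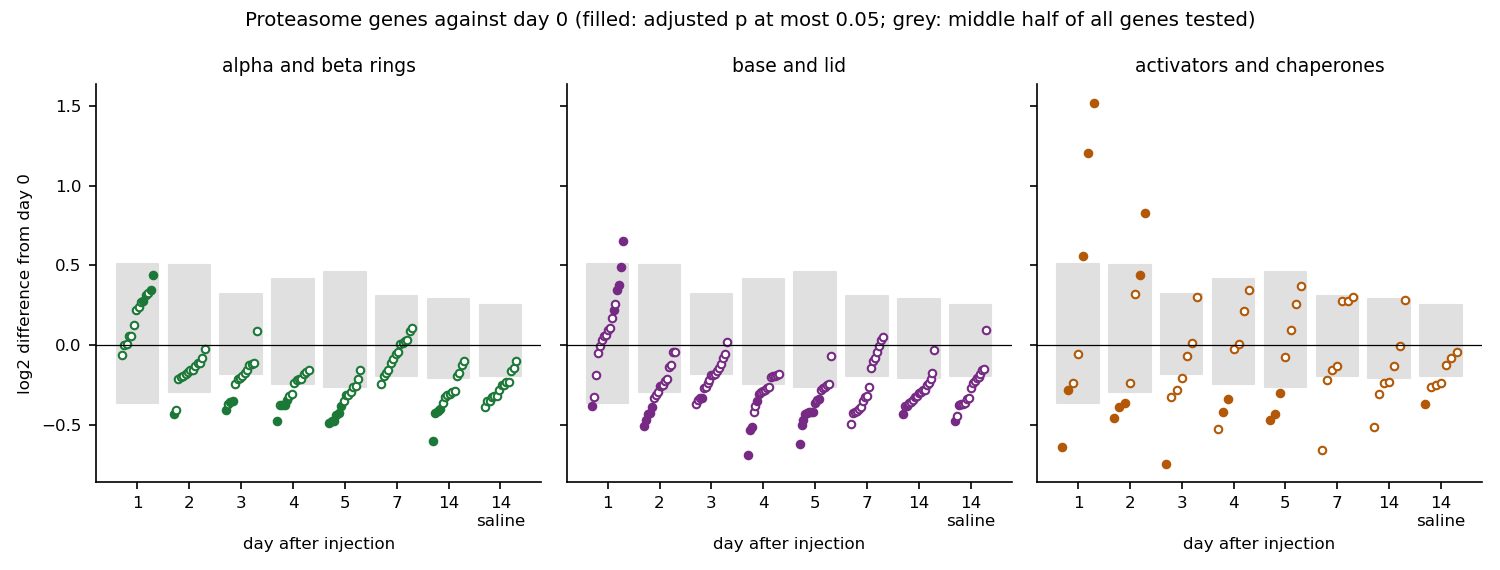
The log2 difference from day 0 of 38 proteasome genes by group (Psme2b and Psmc3ip are not drawn), in panels for the rings, for the base and lid, and for activators and chaperones; filled points passed the test, and the grey band is the span between the quartiles of all genes. The medians over the 40 tested genes run from 0.15 on day 1 to -0.33 on day 5, and Psme1 and Psme2 stand above all others drawn on days 1 and 2.

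The decreases that passed were of modest size, and none reached 2-fold on days 2 to 5. On days 2, 4 and 5 the largest was that of Psmc2, an ATPase of the base. It stood at 658.1 and 676.4 on day 2, at 550.7 and 628.1 on day 4 and at 624.8, 620.5 and 599.0 on day 5, against 1146, 885.0 and 839.8 on day 0, and did not overlap with it. Psmc2 fell by 0.51 on day 2 (SE 0.15, limma adjusted p = 0.0125), by 0.69 on day 4 (SE 0.15, limma adjusted p = 0.00327) and by 0.62 on day 5 (SE 0.13, limma adjusted p = 0.00165). The lid subunit Psmd7 stood at 411.1 and 427.9 on day 2 and at 414.4, 407.4 and 409.9 on day 5, against 652.7, 551.1 and 544.7 on day 0, and fell by 0.47 on day 2 (SE 0.10, limma adjusted p = 0.00120) and by 0.50 on day 5 (SE 0.09, limma adjusted p = 0.000424). The chaperone Psmd5 stood at 146.3 and 161.8 on day 2, against 238.6, 193.2 and 206.7 on day 0 (-0.46, SE 0.12, limma adjusted p = 0.00459). On day 4 the base scaffold Psmd1 stood at 503.5 and 569.5, against 868.5, 785.5 and 681.7 on day 0 (-0.53, SE 0.14, limma adjusted p = 0.0105). Psmd11, a lid subunit that holds lid and core together, stood at 362.4 and 436.6 on day 4, against 596.6, 540.8 and 573.3 on day 0 (-0.52, SE 0.13, limma adjusted p = 0.0120). All 5 genes had their values on these days below every day 0 gland. The calls of Psmc2, Psmd1 and Psmd11 on day 4 were lost without day 4 replicate 2, which leaves 1 library of that day, assumed to vary like the other groups (adjusted p = 0.0699, 0.129 and 0.180), and the day 2 calls of Psmc2 and Psmd5 without day 2 replicate 1 (adjusted p = 0.0909 and 0.0808). The day 2 call of Psmc2 was also lost without day 0 replicate 1 (adjusted p = 0.0654) or day 2 replicate 2 (adjusted p = 0.0569). In fits of the 2 groups alone Psmd5 on day 2 and Psmd1 on day 4 did not pass (adjusted p = 0.0501 and 0.0541). Scaled to totals without the 10 most abundant genes, these decreases did not pass, nor did those of Psme3, Psme4, Psmb5, Psmb6 and Psmb7 on days 2 to 5 (adjusted p between 0.182 and 0.998). Scaled to totals these differences turned positive on days 2, 4 and 5.

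All 3 catalytic subunits fell relative to day 0 on days 5 and 14, and Psmb7 also on days 2 and 4. Psmb5 stood at 245.7, 214.0 and 183.0 on day 5 and at 206.2, 168.2 and 216.9 on day 14, against 361.4, 280.1 and 262.6 on day 0, without overlap. It fell by 0.49 on day 5 (SE 0.15, limma adjusted p = 0.0179) and by 0.60 on day 14 (SE 0.15, limma adjusted p = 0.0201). Psmb6 stood at 330.9, 349.2 and 312.8 on day 5, which overlap the 489.5, 413.9 and 344.5 of day 0 (-0.32, SE 0.11, limma adjusted p = 0.0388). Psmb7 stood at 501.0 and 437.9 on day 2, 445.6 and 462.4 on day 4 and 477.0, 439.1 and 446.0 on day 5, all below the 761.5, 575.1 and 579.8 of day 0. It fell by 0.43 on day 2 (SE 0.14, limma adjusted p = 0.0250), by 0.48 on day 4 (SE 0.14, limma adjusted p = 0.0241) and by 0.48 on day 5 (SE 0.13, limma adjusted p = 0.00825). Without day 0 replicate 1 the day 5 calls of all 3 were lost (adjusted p = 0.112, 0.230 and 0.0614), as were the day 2 and day 4 calls of Psmb7 (adjusted p = 0.121 and 0.114). The call of Psmb5 on day 5 was also lost without day 5 replicate 3 (adjusted p = 0.101), and that of Psmb6 without day 0 replicate 2, day 5 replicate 1 or day 5 replicate 3 (adjusted p = 0.0741, 0.0825 and 0.130). The day 2 call of Psmb7 was lost without either day 2 library (adjusted p = 0.0518 and 0.209) and its day 4 call without either day 4 library (adjusted p = 0.150 and 0.0879). Settings of the fit other than scaling ended 3 of these calls. Psmb6 on day 5 did not pass with all 26 libraries, with no filter on low values or in a fit of the 2 groups alone (adjusted p = 0.0602, 0.0654 and 0.109). Psmb7 did not pass on day 2 with no filter or with the 2 groups alone (adjusted p = 0.0565 and 0.0697), nor on day 4 with all 26 libraries, no filter or the 2 groups alone (adjusted p = 0.0644, 0.0569 and 0.0878). Scaled to totals, day 5 stood above day 0 for all 3, by 0.31, 0.48 and 0.32.

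The numbers of decreases moved with single libraries. On day 2 they were 6 when day 0 replicate 1 was left out, 3 for day 2 replicate 1 and 5 for day 2 replicate 2. On day 3 they were 0 when day 0 replicate 1 or day 3 replicate 2 was left out, 1 for day 3 replicate 3 and 18 for day 3 replicate 1, whose subunit sum of 17507 stood above the 13244 and 12623 of the other day 3 glands. The 5 genes called on day 3, named here after their values were seen, were the chaperone Psmd10 (-0.74, SE 0.17, limma adjusted p = 0.00955), the β subunit Psmb1 (-0.41), the α subunits Psma5 (-0.36) and Psma4 (-0.35), and Psmd7 (-0.33). On day 4 the number was 3 when day 0 replicate 1 was left out, 0 for day 4 replicate 2 and 5 for day 4 replicate 3. On day 5 it was 11 without day 0 replicate 1. Without both day 0 replicate 1 and day 3 replicate 1 the numbers were 11 on day 2, 5 on day 3, 7 on day 4 and 17 on day 5.

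From day 1 to day 2, which does not involve the controls, 14 of the 40 genes fell (against 2.95% of all genes) and 0 rose (against 5.04%, with 1 above at an unadjusted limma p under 0.05). The median was -0.35, against 0.02 over all genes. Psmd4 had the largest difference, standing at 387.6 and 387.0 on day 2, against 762.5, 632.8 and 609.0 on day 1, without overlap (-0.78, SE 0.12, limma adjusted p = 0.000329). Besides Psmd4, Psme1 and Psme2 the 14 held 3 α subunits, 2 β subunits, 3 ATPases and 3 lid subunits. Leaving out 1 library gave 2 decreases for day 2 replicate 2, 5 for day 1 replicate 1 or day 2 replicate 1 and 7 for day 1 replicate 2. The median difference kept its sign under totals (-0.63, where that of all genes was -0.26) and under totals without the 10 most abundant genes (-0.42, where that of all genes was -0.05).

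On day 14 the proteasome genes differed little between IL-1α and saline glands. Of the 40 genes 0 passed the limma test in either direction (against 0% of all genes, of which 682 had an unadjusted p under 0.05), 1 had an unadjusted p under 0.05, and the median difference was -0.01. Relative to day 0, 8 fell on day 14 (against 3.43% of all genes) and 0 rose (against 3.50%, with 0 at an unadjusted limma p under 0.05), with a median of -0.30. The 8 were the 3 catalytic subunits, Psma5, the base subunits Psmd2 and Psmd4, and the lid subunits Psmd7 and Psmd8, with differences between -0.60 and -0.30. Without day 0 replicate 1 or day 14 replicate 2 only 1 of these decreases was called, 2 without day 14 replicate 3 and 5 without day 14 replicate 1. Day 7 had 1 library in the test, assumed to vary like the other groups, and 0 of the 40 genes differed from day 0 (against 0.211% of all genes) by limma, with 7 below and 0 above at an unadjusted p under 0.05, or from saline (against 0.363%, with 1 above and 0 below).

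**Figure D4:**
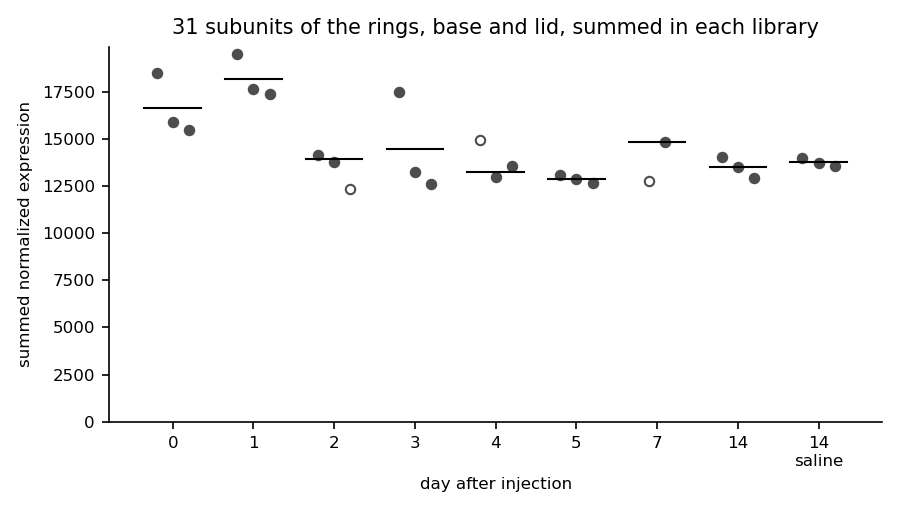
Normalized expression summed over the 31 subunits of the rings, base and lid in each library, by group; open points are the 3 libraries left out of the tests. Day 1 glands lie between 17389 and 19518, day 5 glands between 12678 and 13097, day 0 glands between 15494 and 18520 and saline glands between 13578 and 14009.

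The same sums as a share of everything measured gave another picture of day 1. The 31 subunits made up 0.242 to 0.269% of the total in day 1 glands, against 0.0920 to 0.106% in day 0 glands and 0.0915 to 0.106% in saline glands. In the libraries of days 2 to 5 in the tests the range was 0.122 to 0.180%, also above both controls, and on day 14 it was 0.0926 to 0.0981%. A scaling multiplies all values of a library by 1 factor, so it leaves the distance of the proteasome genes from the median of all genes nearly as it is by construction. With the deposited scaling their median minus that of all genes was 0.12 on day 1 and -0.33 on day 5 relative to day 0, and 0.40 on day 1 relative to saline.

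The balance between interferon-inducible and constitutive forms was followed by ratios within a library. The share of a gene in its pair does not depend on scaling. The log2 ratios depend on it slightly where a gene is low, because 1 was added to each value. Psmb8 takes the place of Psmb5, Psmb9 that of Psmb6 and Psmb10 that of Psmb7 in the immunoproteasome. Psmb8 rose by 2.35 on day 1 and by 1.82 on day 2, Psmb9 by 2.06 and 1.41, and Psmb10 by 2.13 and 1.48 relative to day 0. Psmb8 made up 34.4 to 44.7% of the summed Psmb8 and Psmb5 values in day 1 glands, against 9.42 to 12.5% in day 0 glands and 11.6 to 16.4% in saline glands. Psmb9 made up 10.4 to 15.1% of its pair in day 1 glands, against 2.97 to 4.68% in day 0 glands, and Psmb10 14.3 to 17.1%, against 3.56 to 4.09%. These shares are not divided by gene length and serve only to compare groups.

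The 5 glands of days 1 and 2 in the tests were compared with the 6 glands without IL-1α, from day 0 and saline. The log2 ratio of Psmb8 to Psmb5 averaged -0.70 ± 0.24 in the IL-1α glands, against -2.86 ± 0.31 in the glands without IL-1α, a difference of 2.16 (SD, n = 5 and 6, as for the others). That of Psmb9 to Psmb6 averaged -2.87 ± 0.30 in the IL-1α glands, against -4.25 ± 0.45 in the glands without, a difference of 1.38. That of Psmb10 to Psmb7 averaged -2.54 ± 0.21 in the IL-1α glands, against -4.46 ± 0.27 in the glands without, a difference of 1.92. Among the activators, the log2 ratio of Psme1 to Psme3 averaged -0.08 ± 0.35 in the IL-1α glands, against -1.58 ± 0.32 in the glands without. The log2 ratio of Psme2 to Psme3 averaged -0.24 ± 0.39 in the IL-1α glands, against -1.47 ± 0.22 in the glands without, a difference of 1.23. For each of the 5 ratios all 5 IL-1α glands lay above all 6 others, and a two-sided exact permutation test gave p = 0.00433, also after adjustment over the 5, which is the smallest value 5 against 6 glands allow. The difference of these ratios between days 1 and 2 was not tested.

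**Figure D5:**
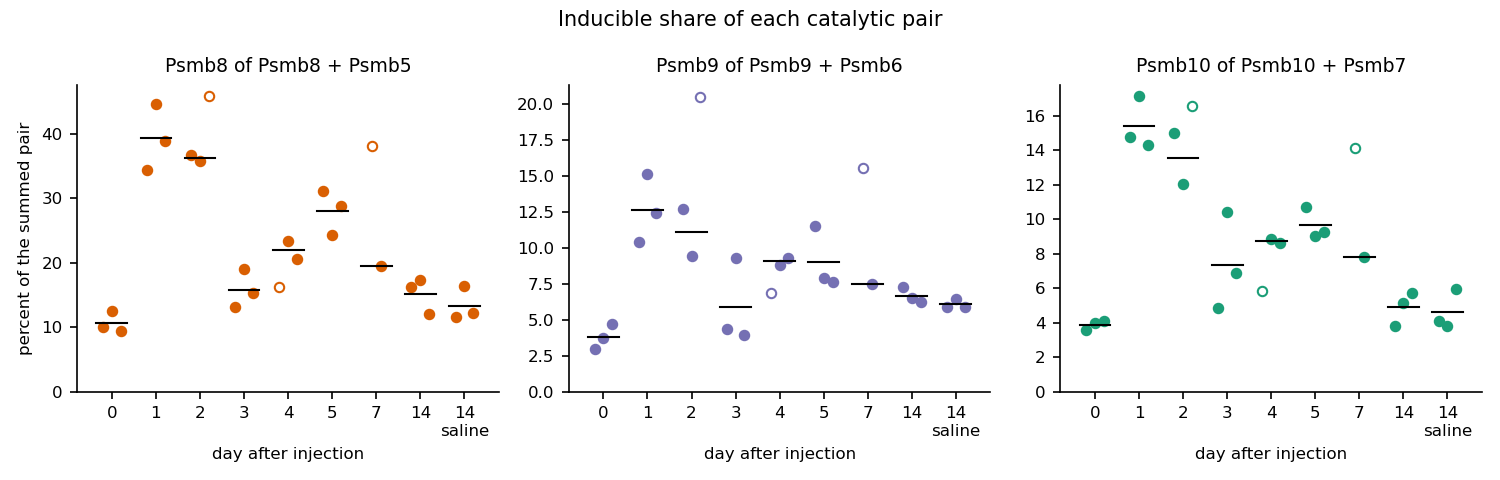
Percent of the interferon-inducible gene in the summed value of each catalytic pair, by library and group, for Psmb8 with Psmb5, Psmb9 with Psmb6 and Psmb10 with Psmb7. The day 1 glands lie at 34.4 to 44.7% for Psmb8, 10.4 to 15.1% for Psmb9 and 14.3 to 17.1% for Psmb10, above the day 0 glands in each panel.

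The subunits varied together across glands. Over the 23 libraries, which share 1 scaling, the median pairwise Pearson correlation among the 31 subunits was 0.74, between -0.02 and 0.93, as a description across libraries. After each group mean was taken away (22 libraries) it was 0.61, between -0.10 and 0.93. The correlation of all genes with the median of the subunits had a median of -0.02, with quartiles of -0.29 and 0.27. With the group means kept, the genes least like the other subunits were Psme4 (-0.31), Psme3 (-0.03), Psme2b (-0.01), Psmd9 (0.03), Psmc3ip (0.07) and, among the subunits, Psmd12 (0.33), while Psme1 stood at 0.61 and Psme2 at 0.65. The genes most like them were Psma5 (0.94) and Psmd8 (0.93). With the group means taken away the order changed. Psme4 then stood at 0.41, Psme3 at 0.56 and Psmd12 at 0.72, whereas Psme1 stood at 0.35 and Psme2 at 0.14. Psmd9 (-0.20), Psme2b (-0.14) and Psmc3ip (0.08) stayed low, and the subunit least like the others was Psmd4 (0.38).

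Genes that work with the proteasome were counted on day 1 beside all genes, of which 22.1% rose and 20.4% fell relative to day 0. Of 19 measured genes for other proteasome parts, assembly and shuttling, 1 rose (Psmg4, an assembly chaperone of the core, 0.81) and 7 fell relative to day 0. The largest decreases were those of Uchl5, a deubiquitinase bound to the regulatory particle (-0.79), and of the ubiquitin shuttles Rad23b (-0.48) and Ubqln1 (-0.41). Relative to saline 5 of the 19 rose and 2 fell, against 18.4% and 17.8% of all genes. Among 10 regulators of subunit transcription 3 rose and 2 fell relative to day 0. Nfe2l2 (NRF2) rose by 0.58, Mafg, a partner of NRF factors, by 0.67 and Nfe2l1 (NRF1), which drives subunit genes when the proteasome is inhibited, by 0.27, whereas Ngly1, the glycanase that processes NRF1, fell by 0.84. Of 11 genes for ubiquitin supply and p97 cofactors 2 rose and 3 fell, with Ubb, a polyubiquitin gene, down by 0.65 and Uba1, the main ubiquitin-activating enzyme, down by 0.46. All 12 interferon response genes rose, among them Isg15 by 3.82, Irf7 by 3.51, Gbp2 by 3.13 and the peptide transporter Tap1 by 2.69. These differences are on the deposited scaling, on which the median of all genes was 0.03. Scaled to totals that median was 1.18, and the differences of these lists on that scaling are not given here. The directions above are therefore relative to the typical gene.

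Markers of other cells moved with day 1. Summed over 8 genes, neutrophil markers stood at 1938 to 2455 in day 1 glands and 739 and 934 in the day 2 glands of the tests, against 12.6 to 14.3 in day 0 glands, where Retnlg, Ly6g and Ngp were at 0, and 16.0 to 21.9 in saline glands. All 6 of them that could be tested rose on day 1. Among these, Cxcr2 and Csf3r, with at most 5.20 on day 0, and Retnlg passed the filter on low values only through IL-1α glands. Given the low sums in both controls, most of the other tested markers can have passed only that way as well. For such genes a rise follows from the filter, so the count of 6 is a description only. Monocyte and macrophage markers, also 8 genes, stood at 2861 to 4180 on day 1 and 6150 and 6803 on day 2, against 709 to 1222 on day 0 and 833 to 911 in saline glands, and all 8 rose on day 1. Lacrimal epithelium markers stood at 63251 to 66573 on day 1, against 147975 to 171092 on day 0 and 140218 to 160525 in saline glands; 4 of the 11 rose and 4 fell. Proliferation markers (5 genes) stood at 70.0 to 76.4 on day 1 and 444.5 and 505.3 on day 2, against 118.9 to 164.9 on day 0. Salivary gland markers (5 genes) stood at 292.8 to 31464 on day 1, against 3472 to 194275 on day 0 and 154.5 to 185309 in saline glands. They varied widely within groups, from 55.8 to 1700230 on day 3 and from 221.6 to 377271 on day 4. In day 3 replicate 2, which had the highest sum, the 10 most abundant genes took 41.1% of the total, against 57.7 and 61.8% in replicates 1 and 3. The bearing of these markers on the scalings to totals was not tested. Skeletal muscle markers (5 genes) stood at 1742 and 1969 on day 2, against 11.7 to 481.6 on day 0. They too varied widely within groups, from 47.2 to 1716 in IL-1α glands on day 14 and from 6.42 to 510.9 on day 5. In day 2 replicate 3, which was not tested, the neutrophil, macrophage, proliferation and muscle sums were 1069, 8023, 513.7 and 7357. T and NK cell markers (5 genes) stood at 20.2 to 25.5 on day 1, against 7.80 to 16.0 on day 0, where Cd8a was at 0, and B and plasma cell markers (4 genes) at 22.1 to 197.5 on day 1, against 149.8 to 1356 on day 0. The part of these markers in the differences of the proteasome genes was not tested.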

How the data were processed

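Total RNA of each lacrimal gland was sequenced as stranded, polyA-selected TruSeq libraries. Per the labels and the study's methods, the authors aligned reads with STAR to mm10, estimated counts per gene with RSEM and divided them by a DESeq2 size factor per library; versions and the annotation release are not given in the sources used here. The deposited values are this signal, a normalized expression without a log, and are not whole counts, so that no count test was run and the count test planned for whole counts was not used. The 1 table held 43346 genes and 26 libraries of 27 samples; 1 day 7 sample was not analysed here. Gene symbols for 42462 identifiers, gene types and lengths came from GENCODE M21 (GRCm38), and start sites from RefSeq (GRCm38.p6).

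The tests ran on log2(value + 1) in limma 3.58.1 (R 4.3.3), with 1 coefficient per group, moderated variance with a trend, 14 residual degrees of freedom, genes with at least 10 in at least 2 of 23 libraries, and Benjamini-Hochberg adjustment over 13762 genes. The added 1 understates changes of low genes. Counts at an unadjusted p are given without the share of all genes, except for day 14 IL-1α against saline. The 3 libraries that the study excluded as outliers were shown but not tested. Each library is 1 mouse; replicate numbers were not taken to pair samples. The script was tested on simulated data. Estimated depth was about 9500000 to 13100000 counts per library (median 11000000), which limits the genes near 10.

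The genes and lists were chosen with earlier results of these data known. Per-library values are given for Psme1 to Psme4, Psmb5 to Psmb7 and, for days 1, 2, 4 and 5, the 3 genes that rose and the 3 that fell most among those that passed; others are given by role, and of each pathway list up to 4 genes that passed. Ratios of genes were compared by exact permutation tests. Alternatives were all 26 libraries, an added 0.1, no filter, a replicate block, 2 scalings to totals, fits without day 3 or on the groups of a comparison alone, saline as the control, a 1.5-fold threshold and each replicate left out.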

Additional observations from a re-analysis of the deposited data

Results flagged for a closer look

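The change from day 1 to day 2 passed limma's test for 14 proteasome genes, all of which were lower on day 2, with 2 and 3 libraries. The log2 differences were -0.78 for Psmd4, -0.76 for Psme2, -0.70 for Psme1, -0.63 for the ATPase Psmc1, -0.53 for the α subunit Psma7 and -0.52 for the β subunit Psmb4. They were -0.50 for Psmd7, -0.47 for Psma3, -0.47 for Psmd8, -0.47 for Psma5, -0.44 for Psmb6, -0.42 for Psmd3, -0.42 for Psmc4 and -0.39 for Psmc3.

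In the 3 libraries left out of the tests, 7 proteasome genes had a value of at least 10 that lay above every library without IL-1α. In day 2 replicate 3 these were Psme1 (286.7), Psme2 (237.6), Psme2b (13.5) and Psmd9 (53.0). In day 4 replicate 1 they were Psmb2 (340.2), Psmd6 (534.4) and Psmd9 (54.6), and in day 7 replicate 1 Psme1 (247.9), Psme2 (255.5), Psmd9 (51.2) and Psmc3ip (14.7). Psme1 and Psme2 of day 7 replicate 1 were also above those of the other day 7 gland, at 176.8 and 204.0. The share of all genes above every library without IL-1α was not counted for these 3 libraries. No excess among proteasome genes can therefore be read from the 7.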

How the results depend on the processing

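Scaled to totals, 40, 40, 38, 34 and 35 proteasome genes were higher on days 1 to 5 and 0 lower, 0 were lower on day 14 or in saline glands, 32 were lower on day 2 than on day 1, and 0 lower on day 1 than in saline glands. The log2 differences then turned to 0.54, 0.80 and 0.90 for Psme4, Psmd12 and Psme3 on day 1. On day 2 they turned to 0.40, 0.43, 0.44, 0.53, 0.52 and 0.47 for Psmc2, Psmd7, Psmd5, Psme3, Psme4 and Psmb7. On day 4 they turned to 0.054, 0.21, 0.22, 0.40 and 0.26 for Psmc2, Psmd1, Psmd11, Psme4 and Psmb7, and on day 5 to 0.17, 0.30, 0.31, 0.49, 0.48 and 0.32 for Psmc2, Psmd7, Psmb5, Psme4, Psmb6 and Psmb7. Scaled to totals without the 10 most abundant genes, 28 were higher on day 1 and 2 on day 5, 4 lower on day 2 than on day 1, and 0 lower on days 1, 2, 3, 4, 5 and 14 and in saline glands relative to day 0 or on day 1 relative to saline. Psmd12 and Psme3 on day 1 then turned to 0.056 and 0.15, and Psme4 and Psmb6 on day 5 to 0.054 and 0.042. By construction both scalings move the median of all genes. Scaled to totals it was 1.18, 0.91, 0.69, 0.73 and 0.79 on days 1 to 5 relative to day 0. The median of the proteasome genes was then 1.33, 0.69, 0.49, 0.46 and 0.47, below that of all genes on days 2 to 5. Counts in this section are given without the share of all genes, so they compare settings and do not set proteasome genes apart.

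With saline as the control 29 were higher and 1 lower on day 1, and 1, 0, 1, 1 and 0 lower on days 2, 3, 4, 5 and 14. Without the filter on low values 7 were higher on day 1, 1 on day 2, and 3, 3, 1 and 8 lower on day 3, on day 14, in saline glands and on day 2 relative to day 1. With only the groups compared, 1 was higher and 6 lower on day 2, 0, 2 and 0 lower on days 3, 4 and 14, 0 lower in saline glands and 23 lower on day 2 than on day 1. With all 26 libraries 3, 6 and 4 were lower on days 3, 4 and 14, 1 in saline glands, and 1 higher and 5 lower on day 7. Without the day 3 libraries 17 were lower on day 4, 19 on day 14 and 13 in saline glands. With a replicate block 8 were lower on day 3 and 8 in saline glands; over the genes tested, 6 of 45 correlations between deviations of same-numbered samples were above 0.1 (lowest -0.253, highest 0.248), so the numbers were not taken as pairs, although replicate 1 had the highest subunit sum in 8 of 9 groups. The block moved no other count by over 1.5 times. A 1.5-fold threshold left 1 lower on days 1, 3, 4, 5 and 14 and 1 higher on day 2. Without day 0 replicate 1 and day 3 replicate 1, chosen after seeing the data, 7 and 4 were lower on days 4 and 14, 1 higher on day 5 and 23 lower on day 2 than on day 1. The cause was not tested.

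Leaving out single replicates gave 5 to 12 higher and 3 to 4 lower on day 1, 1 to 2 higher and 3 to 13 lower on day 2, 0 to 18 lower on day 3, 0 to 1 higher and 0 to 14 lower on day 4, 0 to 1 higher and 11 to 21 lower on day 5, 1 to 7 lower on day 14, 0 to 5 lower in saline glands, 2 to 12 lower on day 2 than on day 1, and 22 to 28 higher and 1 lower on day 1 than in saline glands. On day 2 alone the ratios differed by 2.05, 1.26, 1.79, 1.13 and 0.82 for Psmb8 to Psmb5, Psmb9 to Psmb6, Psmb10 to Psmb7, Psme1 to Psme3 and Psme2 to Psme3, in a design of 2 against 6 glands with a smallest exact p of 0.0714. Undivided by length, the highest level on day 0 was 33.9 times the lowest.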

Other observations

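Replicate 1 had the highest summed level of the 31 subunits in 8 of the 9 groups, day 7 being the exception with replicate 3. It held the highest value of its group for 31 of the 31 subunits on day 3, for 26 on day 1, for 25 on day 0, for 24 on day 4 and for 19 on day 2. On days 5 and 14 it did so for 16 each, and in saline glands for 12. The share over all genes was not counted. Replicate numbers are labels of separate mice and the sources used here tie them to no batch.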
